A study of Homo sapiens with 16 samples.

Results

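The 37 genes described here encode the chaperones, folding enzymes, protein channel, degradation machinery and stress sensors of the endoplasmic reticulum (ER), and were taken by gene symbol from a fixed list. All 37 were found among the 62069 gene identifiers of the count table, and 36 had enough counts to be tested. The other gene, DERL3, had 75 counts over all 16 libraries. RNA was measured in IMR90 ER:RAS cells, a human fetal lung fibroblast line that carries a RAS oncogene fused to an oestrogen receptor domain, so that 4-hydroxytamoxifen (4OHT) switches RAS on. The groups, of 4 libraries each, were shAHCY_2 (a hairpin against AHCY, with 4OHT), shAHCY_4 (another hairpin against AHCY, with 4OHT), EV_4OHT (EV cells with 4OHT, labelled senescent) and EV (labelled non-senescent, with no 4OHT dose given). All groups carried the fusion, were at passage 15 and were labelled day 6, and the 3 other groups had 4OHT at 100 nM. The labels give no hairpin group without 4OHT and no cells without the fusion, so an effect of a hairpin outside RAS activation was not analysed here. AHCY encodes the enzyme that breaks down S-adenosylhomocysteine, the by-product of methylation reactions.

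Proteins bound for secretion or for membranes enter the ER through the SEC61 channel, are folded there by chaperones such as BiP (HSPA5) and by disulfide isomerases, and are sent back to the cytosol for degradation when folding fails. When unfolded protein builds up, the sensors IRE1 (ERN1), ATF6 and PERK (EIF2AK3) start the unfolded protein response: IRE1 splices the XBP1 messenger, ATF6 is cut to free a transcription factor, and PERK slows translation and raises ATF4 and CHOP. Spliced XBP1 and cut ATF6 are known to raise chaperone and degradation genes. Fibroblasts secrete much collagen, and senescent fibroblasts secrete cytokines and proteases. Counts per gene show neither XBP1 splicing nor the cutting or phosphorylation of a sensor.

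Total counts were 10066216 to 14692680 in shAHCY_2, 8236199 to 15144530 in shAHCY_4, 12502278 to 15284201 in EV_4OHT and 13956130 to 18235787 in EV. Nothing in the labels says that replicates were cultured separately, and the p-values therefore rest on a library-to-library spread that may be only technical. AHCY was at 18.5 ± 4.54 CPM (counts scaled to library size) in shAHCY_2 and 14.7 ± 2.19 CPM in shAHCY_4, against 164 ± 8.08 CPM in EV_4OHT (SD, n = 4 each). CXCL8, a senescence cytokine, was at 336 ± 12.2 CPM in EV_4OHT and 3.14 ± 0.94 CPM in EV. It was at 202 ± 26.9 CPM in shAHCY_2 and 212 ± 24.4 CPM in shAHCY_4. IL1B, another such cytokine, averaged 81.4, 116, 131 and 0.278 CPM in shAHCY_2, shAHCY_4, EV_4OHT and EV. Against EV_4OHT, IL1B was called lower with shAHCY_2 (edgeR adjusted p = 3.51e-04) and not called with shAHCY_4 (edgeR adjusted p = 0.33). It was lower in shAHCY_2 than in shAHCY_4 (log2 fold change -0.51, edgeR adjusted p = 0.025). CCNA2, a cell cycle gene, averaged 20.7, 17.8, 6.69 and 84.3 CPM in shAHCY_2, shAHCY_4, EV_4OHT and EV. LMNB1 averaged 6.1, 5.92, 1.22 and 35.8 CPM in the same order. CDKN1A and CDKN2B were called with neither hairpin against EV_4OHT by edgeR. CDKN2A was lower with each, at a log2 fold change of -0.32 with shAHCY_2 (edgeR adjusted p = 0.029) and -0.36 with shAHCY_4 (edgeR adjusted p = 0.0072). The part of cell state in the results below was not tested. All 12 fibroblast markers were detected, and their summed level was 5208 to 5713 CPM in shAHCY_2, 5078 to 5787 CPM in shAHCY_4, 5055 to 5252 CPM in EV_4OHT and 11031 to 12700 CPM in EV. Of these 12, 9 fell in EV_4OHT against EV by edgeR and 0 rose, among them COL1A1 (1170 ± 54.1 CPM in EV_4OHT and 3770 ± 379 CPM in EV) and DCN (122 ± 8.55 CPM in EV_4OHT and 995 ± 64 CPM in EV), and their part in the results below was not tested. The 5 epithelial markers summed to 45.2 to 57.2 CPM in shAHCY_2, 45.1 to 54.8 CPM in shAHCY_4, 49.6 to 59.7 CPM in EV_4OHT and 88.7 to 103 CPM in EV. KRT19 was at 1.44 ± 0.225 CPM in EV_4OHT and 50.9 ± 4.53 CPM in EV, while KRT18 was at 44.7 ± 3.24 CPM in EV_4OHT and 34.1 ± 2.55 CPM in EV. The 3 leukocyte markers summed to at most 1.2 CPM in any library; of the 3 endothelial markers PECAM1 and CDH5 had no counts and VWF reached at most 1.8 CPM. Library 59 of shAHCY_2 stood apart from the others of its group. Library 51 of EV stood apart from libraries 49 and 52 (correlations of log2(CPM + 1) 0.9875 and 0.9883) but not from library 50 (0.9926). Gene levels in libraries 59 and 51 fell with the GC content of the gene. Spearman correlations across genes were -0.56 in library 59 and -0.286 in library 51, against -0.123 to 0.298 in the other 14. Counts of the 36 genes are also given without libraries 59 and 51. Counts printed for other lists are given without these libraries where they differ. In bulk RNA, fewer cells of a type and less RNA per cell cannot be told apart.

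The promoters are shown first, because 6 of the 9 genes that rose with shAHCY_4 (below) hold an ER stress element there. RefSeq windows (GRCh38.p14, 250 bases before to 50 bases after the annotated start) were at hand for 33 of the 37 genes, all but PDIA3, DERL1, DERL3 and SEC24D. 4 motifs known from ER stress or amino acid response promoters were searched on both strands. Only exact matches to the letters were counted, so an element with a changed letter was missed. The ER stress element ERSE, CCAAT and CCACG with 9 bases between them, was present in 7 of 33 genes (21.2%), namely HSPA5, HSP90B1, CALR, CANX, PDIA6, CRELD2 and XBP1, and in 25 of 27305 genes with a window (0.0916%). ERSE-II, ATTGG and CCACG with 1 base between them, was present in HERPUD1, HYOU1 and SDF2L1 (9.09%), against 0.0696% of all genes. The core of the unfolded protein response element, TGACGTGG, was present in HYOU1, SSR3 and SSR4 (9.09%), against 0.927% of all genes. The C/EBP-ATF response element TGATGNAAT, bound by ATF4, was in none of the 33 windows and in 1.22% of all genes. ERSE holds the letters CCAAT and CCACG, which were common by themselves, in 39.7% and 42.1% of all genes. In HYOU1 the core overlaps 1 of the ERSE-II matches. These motifs were defined on genes of this kind, so their frequency here is not an independent finding, and a match is not a bound site.

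The 6 genes with an ERSE or ERSE-II match that were higher with shAHCY_4 are printed with the 250 bases before the start, 5′ to 3′ on the gene's strand, with the match in capitals. HSPA5 (chr9:125241344-125241593, minus strand), HSP90B1 (chr12:103930160-103930409, plus strand), PDIA6 (chr2:10812786-10813035, minus strand), CRELD2 (chr22:49918384-49918633, plus strand) and XBP1 (chr22:28800570-28800819, minus strand) hold ERSE, and SDF2L1 (chr22:21642052-21642301, plus strand) holds ERSE-II. HSP90B1 holds ERSE at 2 places, 1 on each strand. Matches on the opposite strand read as CGTGG before ATTGG or CCAAT.
HSPA5: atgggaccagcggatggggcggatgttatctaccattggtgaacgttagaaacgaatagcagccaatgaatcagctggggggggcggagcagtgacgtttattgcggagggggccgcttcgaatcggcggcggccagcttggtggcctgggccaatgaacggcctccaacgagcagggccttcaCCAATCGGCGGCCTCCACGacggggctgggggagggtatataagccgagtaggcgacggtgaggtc
HSP90B1: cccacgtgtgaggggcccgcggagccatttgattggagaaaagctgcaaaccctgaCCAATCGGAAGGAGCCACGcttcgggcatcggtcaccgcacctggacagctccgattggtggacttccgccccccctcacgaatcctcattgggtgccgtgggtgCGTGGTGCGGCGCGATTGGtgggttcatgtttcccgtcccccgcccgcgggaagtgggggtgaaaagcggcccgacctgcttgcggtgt
SDF2L1: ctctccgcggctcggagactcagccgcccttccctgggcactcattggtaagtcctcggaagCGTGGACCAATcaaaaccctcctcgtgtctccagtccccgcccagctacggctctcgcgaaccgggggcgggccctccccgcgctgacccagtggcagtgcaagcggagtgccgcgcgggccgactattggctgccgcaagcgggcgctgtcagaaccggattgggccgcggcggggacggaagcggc
PDIA6: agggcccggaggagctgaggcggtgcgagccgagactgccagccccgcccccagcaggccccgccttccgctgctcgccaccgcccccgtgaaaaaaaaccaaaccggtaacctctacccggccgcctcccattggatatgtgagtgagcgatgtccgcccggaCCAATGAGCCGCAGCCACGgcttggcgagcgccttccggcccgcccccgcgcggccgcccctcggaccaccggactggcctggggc
CRELD2: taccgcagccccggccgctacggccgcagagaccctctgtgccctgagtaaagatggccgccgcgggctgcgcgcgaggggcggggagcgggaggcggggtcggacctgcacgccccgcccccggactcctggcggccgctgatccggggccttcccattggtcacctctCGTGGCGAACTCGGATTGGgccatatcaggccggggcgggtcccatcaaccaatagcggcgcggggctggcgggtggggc
XBP1: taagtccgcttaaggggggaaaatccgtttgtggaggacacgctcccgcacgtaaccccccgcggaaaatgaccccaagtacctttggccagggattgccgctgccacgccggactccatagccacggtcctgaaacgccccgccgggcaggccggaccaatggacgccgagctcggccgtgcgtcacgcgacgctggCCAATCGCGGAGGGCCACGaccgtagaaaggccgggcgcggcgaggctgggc

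**Figure D1:**
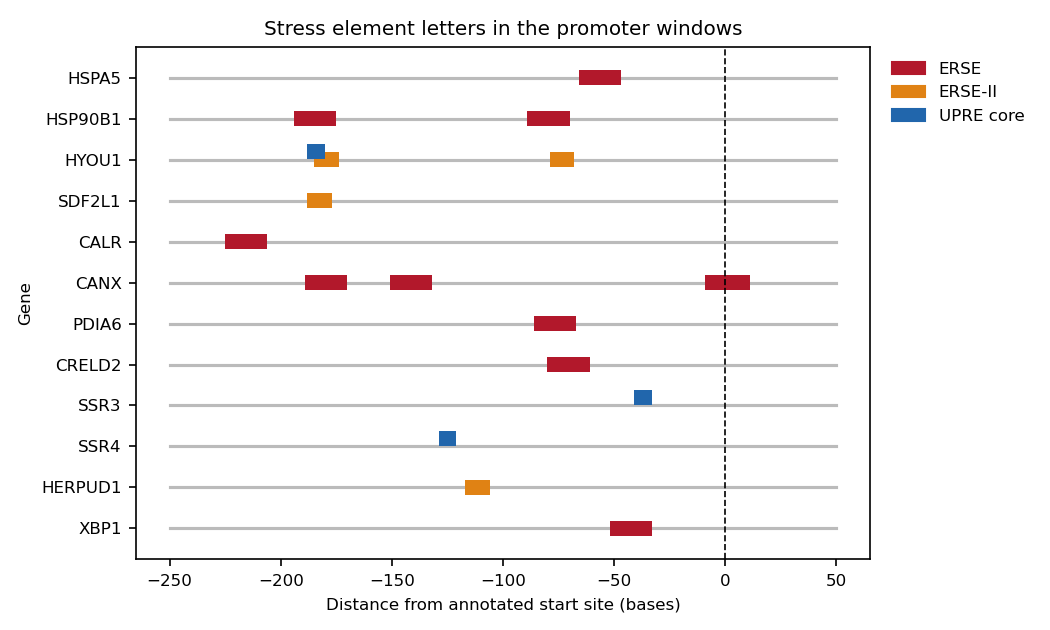
Position of ERSE, ERSE-II and the response element core (coloured bars) in the promoter windows of the 12 genes that hold any of them; the x axis is the distance from the annotated start in bases, and each grey line is a 300-base window. CANX has 3 annotated starts, so its single match is drawn at 3 distances; in HSPA5, XBP1, PDIA6 and CRELD2 the match begins at most 86 bases before the start.

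Per length, in EV_4OHT, the most abundant of the genes was HSPA5, at 326 ± 6.99 RPKM (CPM per kilobase of the longest transcript). P4HB (290 ± 9.65 RPKM), CALR (289 ± 5.95 RPKM) and SEC61B (286 ± 36.1 RPKM) followed. The values of P4HB, CALR and SEC61B lay within their spread of each other. Of the tested genes, the sensors EIF2AK3, at 0.865 ± 0.37 RPKM, and ERN1, at 0.381 ± 0.0761 RPKM, were the lowest, while the sensor ATF6 was at 11.2 ± 0.29 RPKM, above EDEM1, DNAJC3 and EDEM3. DERL3 was at 0.0763 ± 0.032 RPKM, and its exons overlap those of SMARCB1 on the opposite strand, which had 24566 counts. The 37 genes together took 1.02 to 1.04% of all counts in shAHCY_2, 1.07 to 1.1% in shAHCY_4, 0.941 to 0.963% in EV_4OHT and 0.995 to 1.02% in EV.

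**Figure D2:**
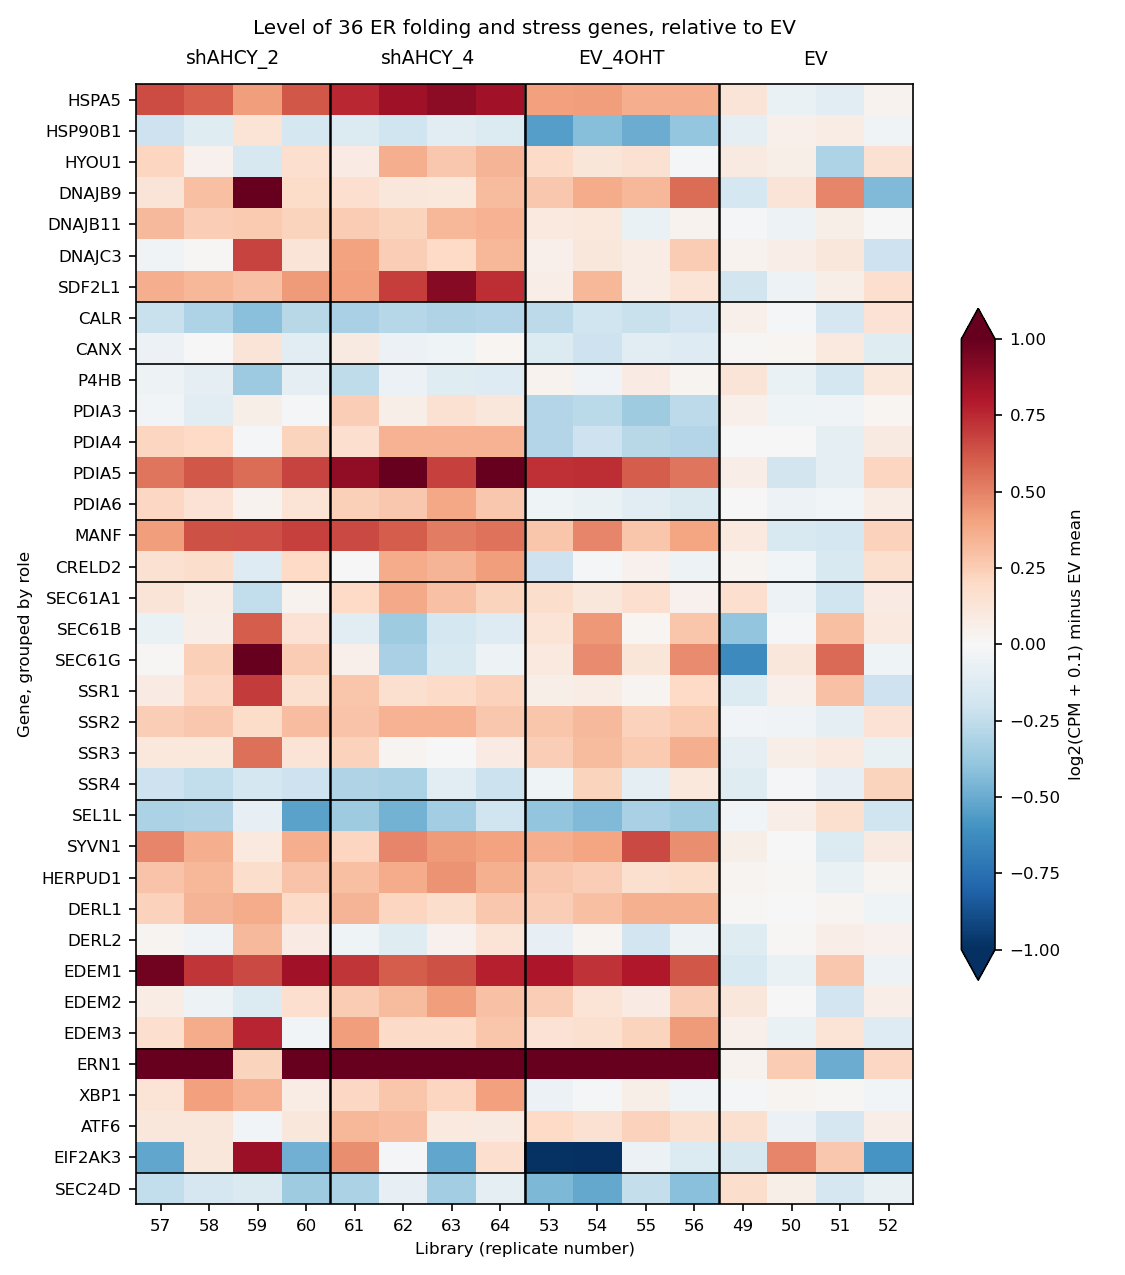
Level of the 36 tested genes in each library as log2(CPM + 0.1) minus the EV mean, with libraries as columns in the order shAHCY_2, shAHCY_4, EV_4OHT and EV, and genes as rows grouped by role. EDEM1, PDIA5 and ERN1 are raised in the 4OHT groups, except ERN1 in library 59, which lies in the EV range. HSP90B1 and PDIA3 are lowest in EV_4OHT. Library 59 of shAHCY_2 departs from its group in several rows.

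Genes of the set moved in both directions with 4OHT. In EV_4OHT against EV, 10 of the 36 genes rose and 6 fell by edgeR's quasi-likelihood test at a Benjamini-Hochberg adjusted p under 0.05. Of all 13526 genes tested, 26.7% rose and 26.8% fell. The median log2 fold change of the 36 was 0.12, against -0.02 for all genes, and their median size of change was 0.23, against 0.40 for all genes. Without library 51 of EV, 11 rose and 6 fell, and with the trend of level on GC content removed from each library, 17 rose. Scaling to library totals alone gave a share of risers among all called genes of 38.2%, against 49.9% with TMM scaling, and a median log2 fold change of -0.13 for all genes and 0.01 for the 36. With that scaling 8 of the 36 rose and 8 fell, with HERPUD1 and SSR3 no longer among those that rose and CANX and PDIA6 added to those that fell.

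The genes that rose were HSPA5, PDIA5, MANF, SSR2, SSR3, SYVN1, HERPUD1, DERL1, EDEM1 and ERN1, and those that fell were HSP90B1, CALR, PDIA3, PDIA4, SEL1L and SEC24D. ERN1 had the largest change. It was at 2.58, 3.61, 3.41 and 2.41 CPM in EV_4OHT, against 0.809, 0.956, 0.529 and 0.922 CPM in EV, so the groups did not overlap. Its log2 fold change was 1.91 ± 0.31 (SE; edgeR adjusted p = 2.32e-05), from 31 to 51 counts in the EV_4OHT libraries and 10 to 15 in the EV libraries. EDEM1, which trims mannose from misfolded glycoproteins, was at 38.4, 36.2, 38.2 and 33.8 CPM in EV_4OHT and at 19.7, 20.9, 26.4 and 21.1 CPM in EV. Every EV_4OHT library was above every EV library, and the log2 fold change was 0.73 ± 0.1 (edgeR adjusted p = 2.38e-06).

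PDIA5, a disulfide isomerase known to act on ATF6, was at 28.5, 28.7, 26.2 and 24.9 CPM in EV_4OHT and at 18, 15.1, 16 and 20 CPM in EV. The groups were apart, with a log2 fold change of 0.65 ± 0.11 (edgeR adjusted p = 2.00e-05). Its exons overlap those of SEC22A on the same strand, which had 6461 counts against 5460 of PDIA5. SYVN1, the ubiquitin ligase of ER-associated degradation, was at 54.9, 56.2, 67.7 and 59.1 CPM in EV_4OHT and at 44.4, 42.5, 38.8 and 45.5 CPM in EV. The groups were again apart (log2 fold change 0.48 ± 0.1, edgeR adjusted p = 2.11e-04), but its exons overlap those of FAU on the same strand, with 61157 counts against its 11447, and how reads in shared exons were assigned is not given in the sources used here.

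The luminal HSP70 and HSP90 chaperones moved in opposite directions. HSPA5, the HSP70 of the ER lumen that also holds the sensors inactive, was at 1296, 1303, 1251 and 1254 CPM in EV_4OHT and at 1067, 929, 907 and 1000 CPM in EV. All EV_4OHT libraries were higher (log2 fold change 0.39 ± 0.06, edgeR adjusted p = 2.66e-05). HSP90B1, the HSP90 of the ER lumen, was at 521, 569, 541 and 582 CPM in EV_4OHT and at 716, 792, 802 and 744 CPM in EV. All EV_4OHT libraries were lower (log2 fold change -0.46 ± 0.07, edgeR adjusted p = 1.11e-05).

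PDIA3, the isomerase that works with the lectin chaperones, was at 390, 397, 373 and 398 CPM in EV_4OHT and at 496, 465, 466 and 485 CPM in EV. It fell by 0.29 on the log2 scale (SE 0.06, edgeR adjusted p = 3.32e-04), with no overlap. PDIA4 fell by 0.27 (SE 0.07, edgeR adjusted p = 0.0025), and the lectin chaperone CALR fell by 0.22 (SE 0.07, edgeR adjusted p = 0.0075). Its partner CANX had a log2 fold change of -0.15 ± 0.06 (edgeR adjusted p = 0.06) and overlapped between groups. SEL1L, the adaptor of SYVN1, was at 141, 137, 148 and 145 CPM in EV_4OHT and at 182, 195, 207 and 162 CPM in EV. It fell by 0.39 (SE 0.09, edgeR adjusted p = 0.0011), while its ligase SYVN1 rose. SEC24D, a cargo adaptor of the COPII coat that carries procollagen out of the ER, was at 119, 114, 138 and 122 CPM in EV_4OHT and at 184, 170, 145 and 155 CPM in EV. It fell by 0.41 (SE 0.09, edgeR adjusted p = 5.21e-04), with every EV_4OHT library below every EV library.

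The remaining risers had smaller changes. MANF, a secreted ER stress protein, averaged 54.1 ± 3.9 CPM in EV_4OHT and 42.4 ± 5.9 CPM in EV (log2 fold change 0.35, edgeR adjusted p = 0.0035). HERPUD1, which recruits the degradation complex, was at 180, 177, 167 and 170 CPM in EV_4OHT and at 152, 151, 143 and 152 CPM in EV. Its groups did not overlap, with a log2 fold change of 0.22 ± 0.06 (edgeR adjusted p = 0.0073), and that call was lost with scaling to library totals (lowest log2 fold change 0.1), as was that of SSR3. The translocon-associated proteins SSR2 and SSR3 rose by 0.27 and 0.30 on the log2 scale, and DERL1, a channel component for retrotranslocation, by 0.32.

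XBP1, the transcription factor gene, was at 53.9, 55.5, 58.2 and 54.8 CPM in EV_4OHT and at 55.4, 57.1, 56.6 and 55 CPM in EV. The groups overlapped, and the 95% interval of the log2 fold change was -0.17 to 0.15. ATF6 was at 84.9, 82.3, 87 and 82.7 CPM in EV_4OHT and at 82.6, 71.3, 65.8 and 77.7 CPM in EV. The groups overlapped at 1 library (log2 fold change 0.18, edgeR adjusted p = 0.072). EIF2AK3 was at 2.91, 2.2, 5.62 and 5.34 CPM in EV_4OHT and at 5.23, 8.26, 7.09 and 3.87 CPM in EV. With 28 to 84 counts in an EV_4OHT library, a log2 difference between -1.21 and 0.03 lay within the 95% interval. DNAJB9, a co-chaperone of BiP, was at 99, 106, 103 and 121 CPM in EV_4OHT and at 72.5, 89.7, 115 and 60.3 CPM in EV, where library 51 was highest. The groups overlapped (log2 fold change 0.35, edgeR adjusted p = 0.096), and without library 51 of EV the gene passed the threshold. DERL3 was at 0.333, 0.393, 0.201 and 0.15 CPM in EV_4OHT and at 0.124, 0.615, 0.899 and 0.307 CPM in EV, or 2 to 5 and 2 to 17 counts a library.

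**Figure D3:**
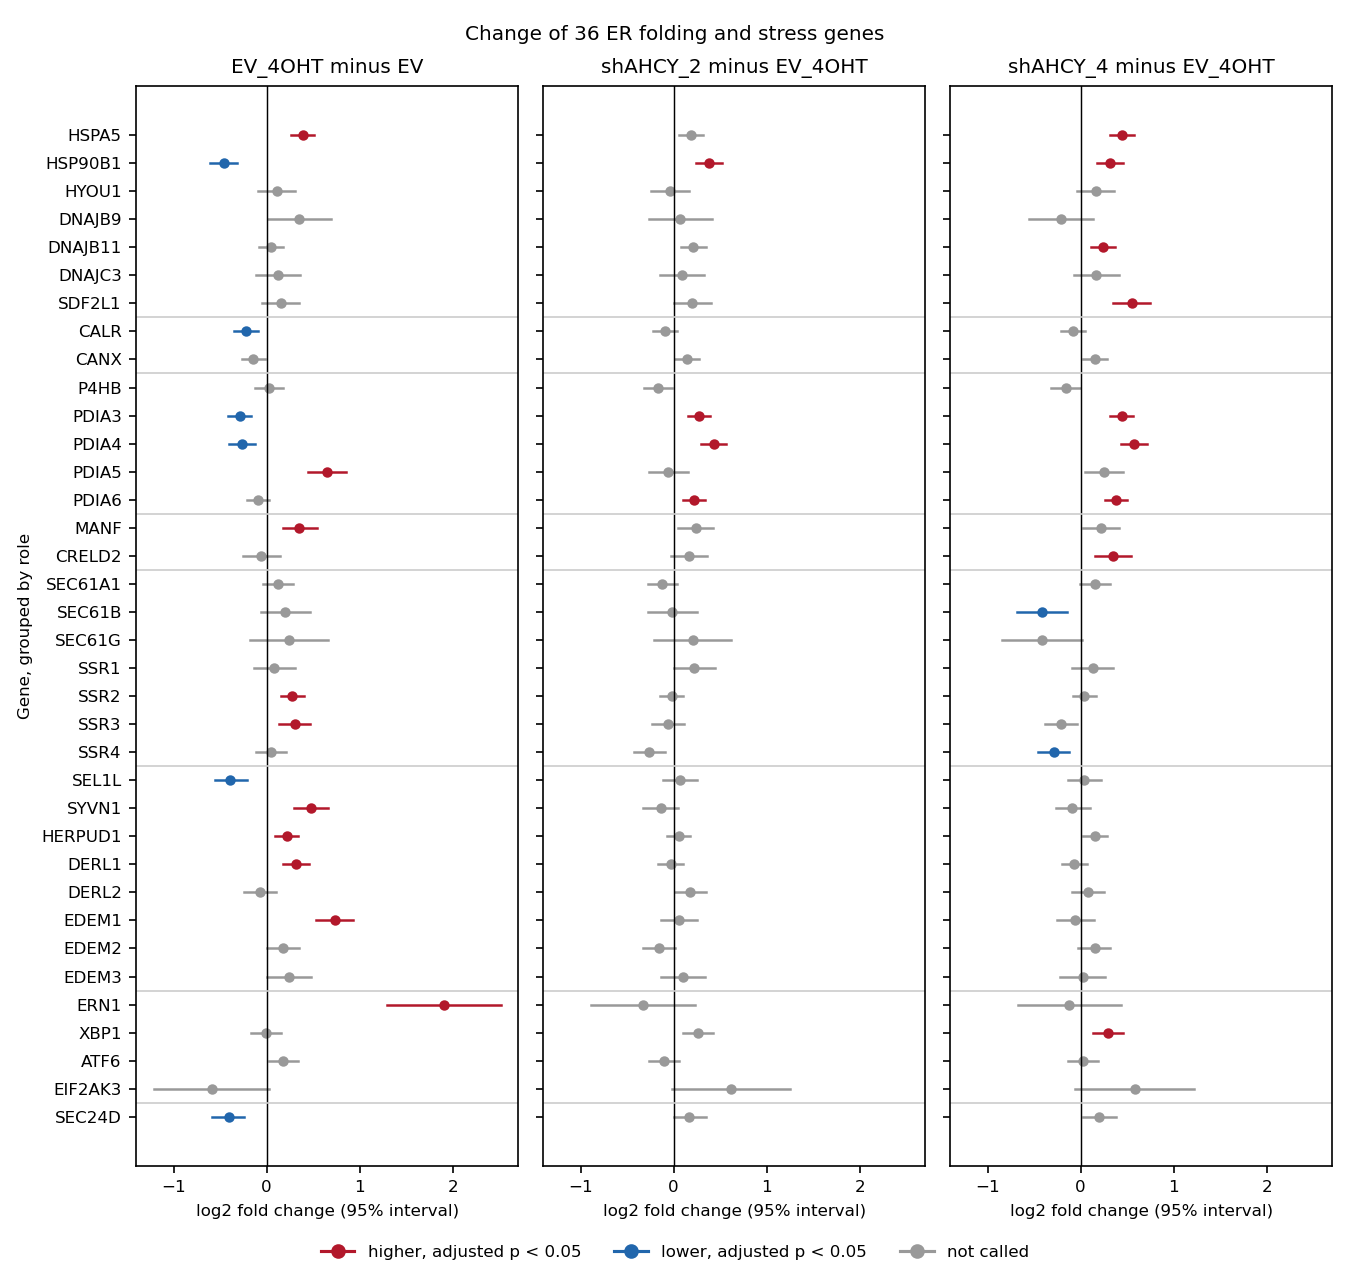
Log2 fold change (points) with its nominal 95% interval (lines) for the 36 tested genes. The panels are EV_4OHT minus EV, shAHCY_2 minus EV_4OHT and shAHCY_4 minus EV_4OHT. Red and blue mark genes higher and lower at an adjusted p under 0.05. HSP90B1, PDIA3 and PDIA4 are blue in the left panel and red in the other two, and ERN1 has the largest change, 1.91, with the widest interval of the genes that passed.

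With either AHCY hairpin, a small group of chaperones and disulfide isomerases was higher than in EV_4OHT. With shAHCY_2, 4 of 36 genes rose (HSP90B1, PDIA3, PDIA4 and PDIA6) and 0 fell, against 3.91% and 3.07% of all genes tested by edgeR's quasi-likelihood test. At an unadjusted p under 0.05, 9 were higher and 2 lower; DESeq2 called 6 higher and 1 lower, and limma-voom 4 higher and 0 lower. With shAHCY_4, 9 of 36 rose (HSPA5, HSP90B1, DNAJB11, SDF2L1, PDIA3, PDIA4, PDIA6, CRELD2 and XBP1) and 2 fell (SEC61B and SSR4), against 7.58% and 6.86% of all genes. The median log2 fold change of the 36 was 0.08 with shAHCY_2 and 0.15 with shAHCY_4, against 0.01 for all genes in each. With the GC trend removed, the median of the 36 was 0 with shAHCY_2 and 0.15 with shAHCY_4, against -0.01 and 0.01 for all genes. Both comparisons use the same EV_4OHT libraries. Scaling to library totals gave a share of risers among all called genes of 69.8% with shAHCY_2 and 67.4% with shAHCY_4, against 56% and 52.5% with TMM scaling. Without library 59 of shAHCY_2, 5 genes rose with that hairpin, HSPA5 being added, and with scaling to library totals 7 rose. The 2 genes that fell with shAHCY_4 became 0 with scaling to library totals or without library 54, 56, 61, 62 or 64, and 1 without library 53 or 63. The 3 genes that were lower in EV_4OHT than in EV and higher with each hairpin than in EV_4OHT were HSP90B1, PDIA3 and PDIA4, a pattern that 2.55% of all genes tested had. The same EV_4OHT libraries enter all 3 comparisons, with opposite sign in EV_4OHT against EV, so these calls are not independent of each other.

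PDIA4 had the smallest adjusted p of the set with each hairpin. It was at 343, 339, 292 and 344 CPM in shAHCY_2 and at 331, 375, 375 and 375 CPM in shAHCY_4, against 241, 255, 243 and 241 CPM in EV_4OHT. Neither hairpin group overlapped EV_4OHT, and the log2 fold changes were 0.43 ± 0.07 with shAHCY_2 (edgeR adjusted p = 3.51e-04) and 0.57 ± 0.07 with shAHCY_4 (edgeR adjusted p = 5.39e-06). PDIA3 was at 469, 445, 497 and 472 CPM in shAHCY_2 and at 568, 498, 530 and 516 CPM in shAHCY_4, against 390, 397, 373 and 398 CPM in EV_4OHT. Every hairpin library was higher, with log2 fold changes of 0.27 ± 0.06 (edgeR adjusted p = 0.0072) with shAHCY_2 and 0.44 ± 0.06 (edgeR adjusted p = 3.00e-05) with shAHCY_4.

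HSP90B1 was at 660, 702, 838 and 677 CPM in shAHCY_2 and at 692, 663, 709 and 695 CPM in shAHCY_4, against 521, 569, 541 and 582 CPM in EV_4OHT. All hairpin libraries were above all EV_4OHT libraries, with log2 fold changes of 0.38 ± 0.07 (edgeR adjusted p = 0.0018) with shAHCY_2 and 0.32 ± 0.07 (edgeR adjusted p = 0.0044) with shAHCY_4. The highest value of shAHCY_2, 838 CPM, was in library 59; over all alternatives, those without each library included, the log2 fold change with shAHCY_2 was 0.29 to 0.42 and the call was kept.

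PDIA6, an isomerase known to bind BiP, was at 512, 491, 456 and 487 CPM in shAHCY_2 and at 524, 535, 582 and 534 CPM in shAHCY_4, against 430, 423, 411 and 402 CPM in EV_4OHT. No hairpin library fell in the EV_4OHT range. The log2 fold changes were 0.22 ± 0.06 with shAHCY_2 (edgeR adjusted p = 0.028) and 0.38 ± 0.06 with shAHCY_4 (edgeR adjusted p = 1.36e-04). With shAHCY_2 the call was lost without any 1 of the 4 EV_4OHT libraries or of libraries 57, 58 and 60 (log2 fold change 0.2 to 0.26 and adjusted p up to 0.12 over all alternatives). It was also lost with no filter on low counts and with only the groups compared.

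HSPA5 was called with shAHCY_4 and between the hairpins, but not with shAHCY_2. It was at 1528, 1475, 1301 and 1500 CPM in shAHCY_2 and at 1642, 1749, 1811 and 1739 CPM in shAHCY_4, against 1296, 1303, 1251 and 1254 CPM in EV_4OHT. All shAHCY_4 libraries were above EV_4OHT, while library 59 of shAHCY_2 lay within its range. The log2 fold changes were 0.19 ± 0.06 with shAHCY_2 (edgeR adjusted p = 0.087) and 0.44 ± 0.06 with shAHCY_4 (edgeR adjusted p = 4.60e-05). Directly compared, shAHCY_2 was lower than shAHCY_4 by edgeR's test (log2 fold change -0.26 ± 0.06, adjusted p = 0.049), the only gene of the 36 called between the hairpins, where 0.54% of all genes were lower and 0.702% higher. None was higher; at an unadjusted p under 0.05, 2 were higher and 7 lower, DESeq2 called 0 higher and 3 lower, and limma-voom 0 and 1. The HSPA5 call was kept in 5 of 17 alternatives (log2 fold change -0.29 to -0.20, adjusted p 0.0086 to 0.17) and was lost without library 58, 59 or 60 of shAHCY_2 and without any 1 library of shAHCY_4.

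SDF2L1, which acts with BiP and its J-domain partners, was at 42.6, 41.7, 40.6 and 44.5 CPM in shAHCY_2 and at 44.1, 53.6, 62.2 and 55.4 CPM in shAHCY_4, against 34.7, 41.6, 34.9 and 36.5 CPM in EV_4OHT. The shAHCY_4 libraries were all above EV_4OHT, and shAHCY_2 overlapped it. The log2 fold change was 0.55 ± 0.1 with shAHCY_4 (edgeR adjusted p = 7.89e-04) and 0.20 ± 0.1 with shAHCY_2 (edgeR adjusted p = 0.27). The difference between the hairpins was -0.35 ± 0.1 (edgeR adjusted p = 0.088). XBP1 was at 61.5, 74.4, 71.3 and 59 CPM in shAHCY_2 and at 64.7, 67.8, 65 and 74.4 CPM in shAHCY_4, against 53.9, 55.5, 58.2 and 54.8 CPM in EV_4OHT. All hairpin libraries were higher, and the log2 fold changes were 0.26 ± 0.08 with shAHCY_2 (edgeR adjusted p = 0.062) and 0.29 ± 0.08 with shAHCY_4 (edgeR adjusted p = 0.021).

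DNAJB11, a J-domain partner of BiP, was at 144, 136, 138 and 134 CPM in shAHCY_2 and at 137, 134, 145 and 146 CPM in shAHCY_4, against 123, 124, 110 and 118 CPM in EV_4OHT. Every hairpin library was higher, with a log2 fold change of 0.21 ± 0.07 in shAHCY_2 (edgeR adjusted p = 0.056) and 0.24 ± 0.07 in shAHCY_4 (edgeR adjusted p = 0.018). CRELD2, an ER stress protein, averaged 80.8 ± 10.1 CPM in shAHCY_4 and 63.5 ± 4.63 CPM in EV_4OHT, and its ranges overlapped although it was called (log2 fold change 0.35, edgeR adjusted p = 0.021). Its exons overlap those of ALG12 on the opposite strand. The shAHCY_4 calls of XBP1, DNAJB11 and CRELD2 were each lost without certain libraries. For XBP1 these were 53, 54 and 56 of EV_4OHT and 62 and 64 of shAHCY_4 (0.25 to 0.35 over all alternatives), for DNAJB11 55, 56, 63 and 64 (0.21 to 0.30), and for CRELD2 53, 56, 62, 63 and 64 (0.29 to 0.43). The calls of XBP1 and DNAJB11 were also lost with no filter on low counts, and that of DNAJB11 with the GC trend removed.

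**Figure D4:**
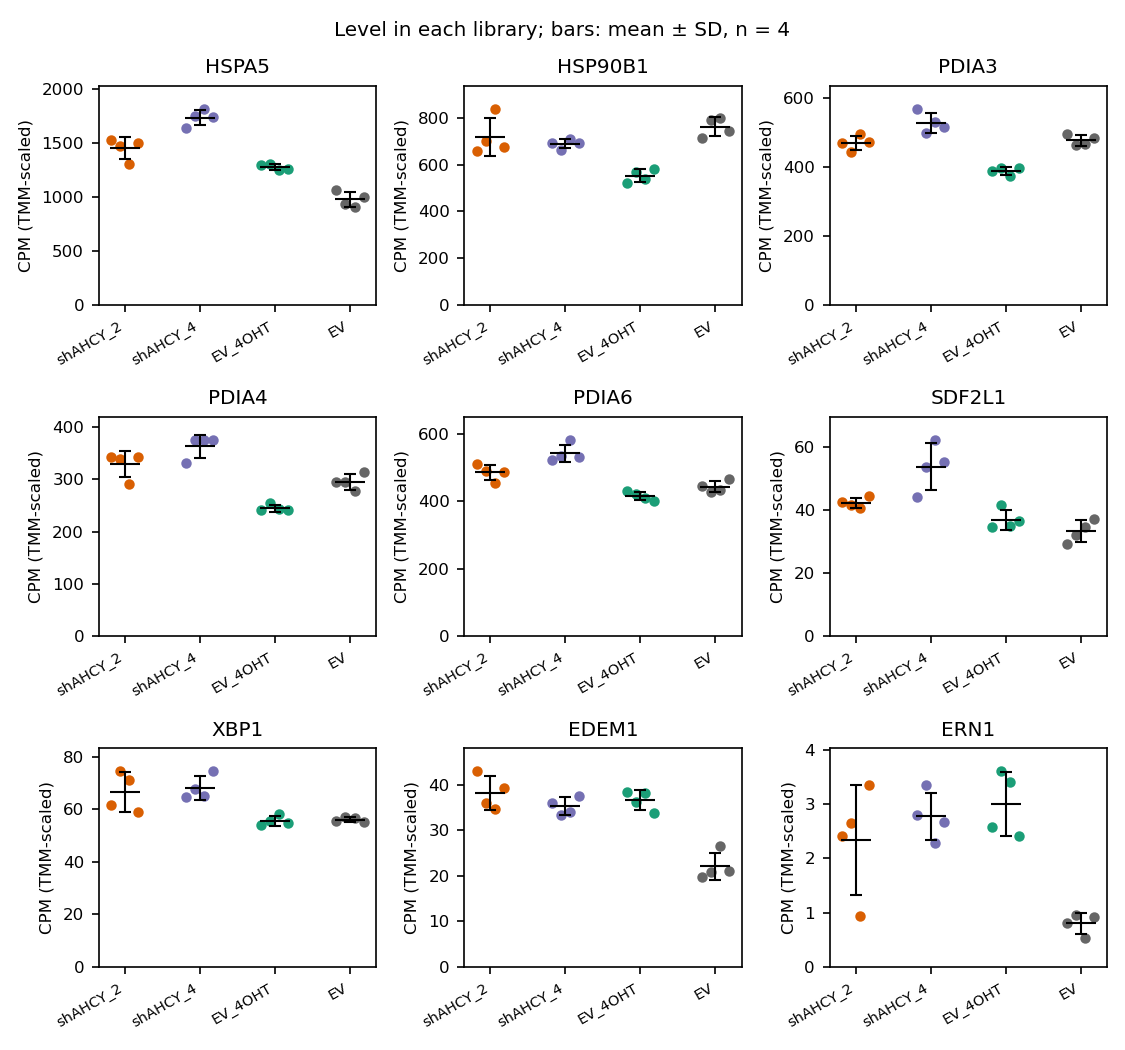
Level in CPM (y axes, from 0) of 9 genes in each library (points), with mean ± SD (n = 4), for shAHCY_2, shAHCY_4, EV_4OHT and EV. PDIA3, PDIA4, PDIA6, HSP90B1 and XBP1 are above EV_4OHT in all hairpin libraries, and EDEM1 is above EV in all 4OHT libraries.

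Of 7 channel genes, 0 rose and 2 fell with shAHCY_4, and 0 were called with shAHCY_2 (1 lower at an unadjusted p under 0.05 and by DESeq2, 0 by limma-voom), beside the shares of all genes given above, 7.58% higher and 6.86% lower with shAHCY_4. SEC61B, the small beta subunit of the channel, averaged 147 ± 11.3 CPM in shAHCY_4 and 196 ± 24.8 CPM in EV_4OHT (log2 fold change -0.41 ± 0.14, edgeR adjusted p = 0.042). SSR4, of the translocon-associated complex, averaged 133 ± 8.71 CPM in shAHCY_4 and 163 ± 16.3 CPM in EV_4OHT (log2 fold change -0.29 ± 0.08, edgeR adjusted p = 0.024), and its exons overlap those of IDH3G, with 25870 counts against its 32267. Both calls were lost with scaling to library totals. The SEC61B call was also lost without library 53, 54, 56, 61, 62, 63 or 64 (-0.47 to -0.34 over all alternatives), and the SSR4 call without library 54, 56, 61, 62 or 64 (-0.34 to -0.23). Of 8 degradation genes tested, 0 were called with either hairpin by edgeR with TMM scaling; at an unadjusted p under 0.05 there were 0 with shAHCY_2 and 1, higher, with shAHCY_4, and DESeq2 and limma-voom called 0. HERPUD1 was at 182, 188, 169 and 182 CPM in shAHCY_2 and at 184, 193, 204 and 191 CPM in shAHCY_4, against 180, 177, 167 and 170 CPM in EV_4OHT. It overlapped EV_4OHT with shAHCY_2 and not with shAHCY_4, where the log2 fold change was 0.15 (95% interval 0.03 to 0.28, edgeR adjusted p = 0.12). HERPUD1 was called higher with shAHCY_4 with scaling to library totals (0.21, edgeR adjusted p = 0.038) and with the GC trend removed (0.17, edgeR adjusted p = 0.027).

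The sensors gave no call with either hairpin. ERN1 was at 2.41, 2.65, 0.934 and 3.35 CPM in shAHCY_2 and at 2.8, 3.35, 2.29 and 2.68 CPM in shAHCY_4, against 2.58, 3.61, 3.41 and 2.41 CPM in EV_4OHT. The groups overlapped, and the 95% intervals of the log2 fold change were -0.89 to 0.23 with shAHCY_2 and -0.67 to 0.43 with shAHCY_4. EIF2AK3 was at 4.07, 6.36, 10.7 and 4.17 CPM in shAHCY_2 and at 8.16, 5.82, 4.07 and 6.6 CPM in shAHCY_4, against 2.91, 2.2, 5.62 and 5.34 CPM in EV_4OHT. Its groups overlapped, with intervals up to 1.25 and 1.22. ATF6 was at 80.1, 80.3, 72.7 and 80.1 CPM in shAHCY_2 and at 93.5, 91.8, 79.1 and 78.8 CPM in shAHCY_4, against 84.9, 82.3, 87 and 82.7 CPM in EV_4OHT, a log2 difference of -0.10 and of 0.02. All shAHCY_2 libraries lay below EV_4OHT, and shAHCY_4 overlapped it. DNAJB9 was at 89.5, 101, 169 and 93 CPM in shAHCY_2 and at 91.9, 88.6, 88.1 and 102 CPM in shAHCY_4, against 99, 106, 103 and 121 CPM in EV_4OHT. The groups overlapped, and the 169 CPM was in library 59. Its exons overlap those of PNPLA8 and THAP5 on the opposite strand, with 12754 and 7245 counts against 21303 of DNAJB9. DERL3 had 0 to 8 counts a library in shAHCY_2, 0 to 7 in shAHCY_4 and 2 to 5 in EV_4OHT.

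Of the 36 genes, 13 were called in none of these 3 comparisons, namely HYOU1, DNAJB9, DNAJC3, CANX, P4HB, SEC61A1, SEC61G, SSR1, DERL2, EDEM2, EDEM3, ATF6 and EIF2AK3, against 42.2% of all genes tested. These are calls of the fit reported, and several of the 13 passed under alternatives. CANX was called lower in EV_4OHT against EV in 7 of 17. With shAHCY_4, P4HB, SEC61A1 and SEC61G were called with only the groups compared and with the GC trend removed. P4HB, a disulfide isomerase that is also a subunit of collagen prolyl hydroxylase, averaged 670 ± 62.9 CPM in shAHCY_2 and 673 ± 37.8 CPM in shAHCY_4, against 754 ± 25.1 CPM in EV_4OHT. Both hairpin groups lay below EV_4OHT, at -0.17 and -0.16 on the log2 scale, in contrast to PDIA3, PDIA4 and PDIA6, but neither difference passed (edgeR adjusted p = 0.2 and 0.17). SEC61A1, the pore of the channel, averaged 1082 ± 61.2 CPM in shAHCY_4 and 976 ± 40.1 CPM in EV_4OHT, with no overlap (log2 fold change 0.15, edgeR adjusted p = 0.25). SEC61G, its gamma subunit, averaged 166 ± 17.8 CPM in shAHCY_4 and 221 ± 31.9 CPM in EV_4OHT, also with no overlap (log2 fold change -0.41, edgeR adjusted p = 0.22). HYOU1, an HSP70-like chaperone that holds 2 ERSE-II matches, averaged 66.5 ± 7.4 CPM in shAHCY_2 and 76.3 ± 6.59 CPM in shAHCY_4, against 68.6 ± 4.04 CPM in EV_4OHT. It overlapped EV_4OHT in both, and with shAHCY_4 the 95% interval of its log2 fold change was -0.04 to 0.36.

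Set beside the promoters above, with shAHCY_4 6 of the 10 genes with an ERSE or ERSE-II match rose and 0 fell (HSPA5, HSP90B1, SDF2L1, PDIA6, CRELD2 and XBP1; median log2 fold change 0.30), and of the 23 with a window and no match 2 rose and 2 fell (median 0.04). With shAHCY_2 these were 2 of 10 higher (median 0.18) and 1 of 23 higher (median 0.06). In EV_4OHT against EV, 2 of the 10 rose and 2 fell (median -0.03), and 7 of the 23 rose and 2 fell (median 0.18). Of all genes tested, 7.58% rose and 6.86% fell with shAHCY_4, and 3.91% and 3.07% with shAHCY_2. In EV_4OHT against EV these shares were 26.7% and 26.8%. The shAHCY_4 calls of CRELD2 and XBP1 were kept in 12 and 11 of 17 alternatives. These counts are descriptions of exact matches, and PDIA4, which rose with each hairpin, holds no exact match to the 4 motifs in its window.

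The hairpin groups were also set against EV, to see where the genes stood relative to cells without 4OHT. With shAHCY_2, 16 of 36 were higher and 4 lower, against 24.5% and 23.6% of all genes, and with shAHCY_4, 19 were higher and 3 lower, against 25.4% and 25.8% (edgeR, adjusted p under 0.05). HSP90B1 was at 660, 702, 838 and 677 CPM in shAHCY_2 and at 692, 663, 709 and 695 CPM in shAHCY_4, against 716, 792, 802 and 744 CPM in EV. All shAHCY_4 libraries and the shAHCY_2 libraries other than 59 lay below EV, and library 59 lay above it. The log2 fold change was -0.09 with shAHCY_2 (edgeR adjusted p = 0.34) and -0.15 with shAHCY_4 (edgeR adjusted p = 0.093). Without library 59 HSP90B1 was called lower with shAHCY_2 (-0.17, edgeR adjusted p = 0.03), as it was with scaling to library totals (-0.17, edgeR adjusted p = 0.047). With shAHCY_4 HSP90B1 was called lower with library totals, with upper-quartile scaling and without library 49 of EV (-0.20, -0.19 and -0.20). PDIA3 overlapped EV with shAHCY_2 (95% interval of the log2 fold change -0.14 to 0.10) and was above EV in every shAHCY_4 library (log2 fold change 0.14, edgeR adjusted p = 0.055). HSPA5 was above EV by 0.57 ± 0.06 with shAHCY_2 (edgeR adjusted p = 1.56e-07) and by 0.83 ± 0.06 with shAHCY_4 (edgeR adjusted p = 4.58e-10). CALR was below EV with each, at -0.31 and -0.30. Without library 49 of EV, 10 genes rather than 16 were higher with shAHCY_2 and 5 rather than 3 were lower with shAHCY_4, and without library 51, 5 were lower with shAHCY_4. With shAHCY_2, 14 were higher and 5 lower without library 59, and 17 were higher and 5 lower without library 51.

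Other genes of the response and of protein handling in the ER, and cytosolic heat shock chaperones, were counted from 9 lists. The shares of all genes to set beside each count are 26.7% higher and 26.8% lower in EV_4OHT against EV, 3.91% and 3.07% with shAHCY_2, and 7.58% and 6.86% with shAHCY_4. In the PERK-ATF4-CHOP arm (15 genes), 12 rose and 1 fell in EV_4OHT against EV by edgeR, with a median log2 fold change of 0.70. Without library 51 of EV, 11 rose and 1 fell. The list is named for the pathway, and the part of PERK in the changes of its genes was not tested. TRIB3, a CHOP target that restrains ATF4 signalling, averaged 95.5 ± 2.27 CPM in EV_4OHT and 32.8 ± 3.11 CPM in EV (edgeR adjusted p = 9.75e-13). DDIT3, which encodes CHOP, averaged 50.2 ± 3.42 CPM in EV_4OHT and 22.4 ± 1.03 CPM in EV (edgeR adjusted p = 3.95e-11). The cystine carrier SLC7A11 averaged 184 ± 15 CPM in EV_4OHT and 58.9 ± 11.1 CPM in EV (edgeR adjusted p = 4.78e-10).

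No gene of this arm rose with a hairpin. TRIB3 averaged 93.1 ± 8.52 CPM in shAHCY_2 and 99.4 ± 6.8 CPM in shAHCY_4, against 95.5 ± 2.27 CPM in EV_4OHT, and overlapped EV_4OHT in both. With shAHCY_4, 0 of 15 rose and 5 fell (median -0.29), and with shAHCY_2, 0 rose and 1 fell (median -0.04); at an unadjusted p under 0.05 edgeR gave 0 higher with either, and 7 and 4 lower. DESeq2 and limma-voom also called 0 higher. SLC7A11 averaged 123 ± 8.77 CPM in shAHCY_2 (log2 fold change -0.58, edgeR adjusted p = 0.0056) and 93 ± 19.5 CPM in shAHCY_4 (-0.99, edgeR adjusted p = 1.30e-05), against 184 ± 15 CPM in EV_4OHT. ATF4 averaged 72.6 ± 6.06 CPM in shAHCY_4 and 99.6 ± 7.1 CPM in EV_4OHT (log2 fold change -0.46, edgeR adjusted p = 6.19e-04), with -0.20 and an adjusted p of 0.17 in shAHCY_2. CEBPB fell by 0.88 with shAHCY_4 (edgeR adjusted p = 0.0014) and VLDLR by 0.90 (edgeR adjusted p = 0.0035). VLDLR was the gene of this arm called between the hairpins (6.03 ± 0.77 CPM in shAHCY_2 and 3.11 ± 0.731 CPM in shAHCY_4, edgeR adjusted p = 0.02), a call lost without library 58, 60, 61 or 62.

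Among the other transducers (12 genes tested), 3 rose with shAHCY_4, namely CREB3L1, EIF2S1 and RTCB, and 1 fell with shAHCY_2, CREB3; 4 rose and 5 fell in EV_4OHT against EV. CREB3L1, an ER-bound transcription factor of collagen-producing cells, averaged 101 ± 11.6 CPM in shAHCY_4 and 65.9 ± 9.69 CPM in EV_4OHT (log2 fold change 0.62, edgeR adjusted p = 4.39e-04), and was lower in EV_4OHT than in EV (-0.74, edgeR adjusted p = 5.60e-06). RTCB, the ligase that joins spliced XBP1, had a log2 fold change of 0.26 with shAHCY_4 (edgeR adjusted p = 0.027), a call lost without library 54, 56, 62 or 63 (0.22 to 0.25). The CREB3 call (-0.27, edgeR adjusted p = 0.017) was lost without library 53 or 54 of EV_4OHT (-0.27 and -0.26). Among other folding enzymes (26 genes), 1 rose and 2 fell with shAHCY_2, and 2 rose and 0 fell with shAHCY_4. Without library 59, 1 rose and 1 fell with shAHCY_2. FKBP7, a prolyl isomerase, rose by 0.69 with shAHCY_2 (edgeR adjusted p = 3.38e-04) and by 0.75 with shAHCY_4 (edgeR adjusted p = 6.67e-05). In EV_4OHT against EV, 14 of these 26 genes rose and 3 fell, TMX4 the most firmly (1.24, edgeR adjusted p = 6.48e-11). Without library 51 of EV, 13 rose and 3 fell.

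In N-glycan addition (21 genes), TUSC3 fell by 0.49 and STT3A rose by 0.28 with shAHCY_4 (edgeR adjusted p = 2.19e-04 and 0.0032), in a count of 2 higher and 2 lower. In ER exit (20 genes), 0 rose and 1 fell with shAHCY_2, and 2 rose and 1 fell with shAHCY_4. The gene that fell was the retrieval receptor KDELR1, by 0.38 with shAHCY_2 and 0.46 with shAHCY_4 (edgeR adjusted p = 0.0017 and 1.31e-04). The other degradation list (23 genes) had 0 calls with either hairpin by edgeR over all 4 groups, DESeq2 or limma-voom, with 1 gene lower at an unadjusted p under 0.05 with shAHCY_2 and 2 higher with shAHCY_4. With shAHCY_4, 2 were called higher with only the groups compared in the edgeR fit, 2 with the GC trend removed and 1 with scaling to library totals. Collagen folding genes (13) had 4 lower with shAHCY_4, CRTAP, PLOD2, P3H2 and PLOD3. The PLOD2 call was lost without library 55 (-0.38, against -0.43 with all libraries), and that of PLOD3 without 53, 54, 55, 61 or 64 (-0.36 to -0.30). Of the cytosolic heat shock chaperones (15), 0 rose and 2 fell with shAHCY_4 (HSPB1 and CRYAB; unadjusted 0 higher and 5 lower, DESeq2 0 and 3, limma-voom 0 and 2). The HSPB1 call was lost without library 54, 61 or 64 (-0.26 to -0.21) and that of CRYAB without 55, 63 or 64 (-0.88 to -0.78). With shAHCY_2 edgeR called 0 of these 15; at an unadjusted p under 0.05 it gave 0 higher and 3 lower, DESeq2 called 1 lower and limma-voom 0. In signal recognition and translocation (18 genes), 2 rose and 1 fell with shAHCY_4, SRP68 with the smallest adjusted p (0.44, edgeR adjusted p = 8.29e-04).

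**Figure D5:**
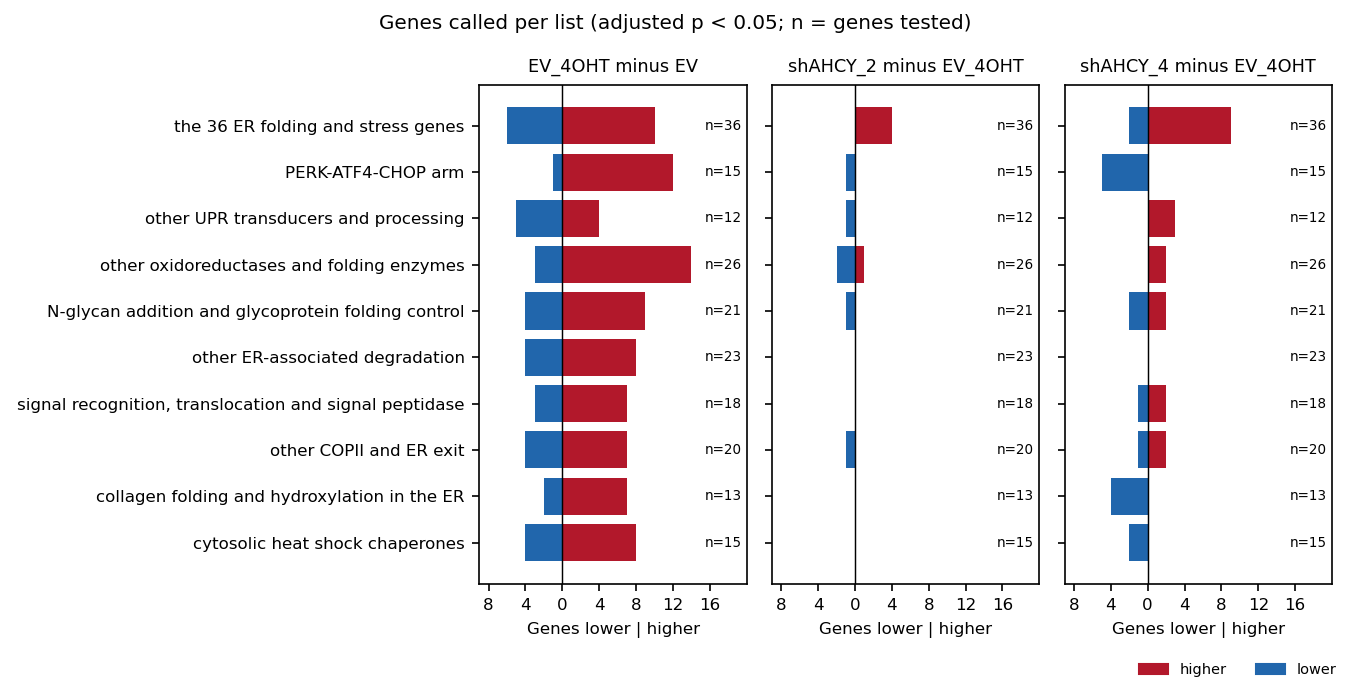
Number of genes higher (red, right of 0) and lower (blue, left of 0) at an adjusted p under 0.05 in the 36 genes and 9 other lists, for EV_4OHT minus EV, shAHCY_2 minus EV_4OHT and shAHCY_4 minus EV_4OHT; n is the number of genes tested. With shAHCY_4 the 36 genes have 9 higher and 2 lower, and the PERK-ATF4-CHOP arm has 0 higher and 5 lower.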

How the data were processed

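Smart-Seq2 libraries of 16 samples in 4 groups of 4 were analysed from raw counts per gene that the authors deposited in 1 table. The submitters' processing notes name CASAVA 1.8.2, TopHat2 2.0.11 and featureCounts 1.18.0, and the genome build hg19 (GRCh37). Not given in the sources used here are the annotation, the strand setting and the handling of reads that map to several genes. The protocol does not mark strand, so overlapping genes on opposite strands cannot be separated.

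Genes were kept with edgeR's filterByExpr (13526 genes) and fitted in all 16 libraries with a term per group by edgeR 4.0.16's quasi-likelihood test in R 4.3.3, with TMM scaling and Benjamini-Hochberg adjustment over all genes tested at 0.05. Standard errors came from the log2 fold change and its F statistic (the size of the change over the root of F). The biological coefficient of variation was 11.9%. CPM were scaled by TMM and are given as mean ± SD, and RPKM divide them by the length of the gene's longest transcript. Transcript length, GC content and overlapping exons came from the GENCODE annotation of GRCh38, not from the unnamed annotation behind the counts. All intervals given as 95% are nominal, set from the standard error with the normal distribution. They are narrower than the quasi-likelihood test allows, so an interval can leave out 0 where the unadjusted p is above 0.05. For DNAJB9 in EV_4OHT against EV the interval was 0.01 to 0.69, with an unadjusted edgeR p of 0.057. Alternatives were RLE, upper-quartile and total-count scaling, DESeq2 1.42.0, limma-voom (limma 3.58.1), no filter on low counts, 10 counts in 8 libraries, a fit of only the groups compared, removal of the GC trend and leaving out each library. The fit was tested on simulated data.

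The genes and lists were chosen with earlier results of these data known. Values in every library were printed for 10 genes given by name, for the 4 largest changes in each direction in EV_4OHT against EV among those past the threshold, for up to 6 genes with the smallest adjusted p per hairpin, and for genes called between the hairpins. Of each other list, up to 4 genes with the smallest adjusted p were named. Promoter sequences are from RefSeq (GRCh38.p14) and were matched by symbol. No coordinates were moved between builds.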

Additional observations from a re-analysis of the deposited data

Results flagged for a closer look

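In 10 of 144 sets of 4 libraries (36 genes in 4 groups), 1 library lay far from the other 3 relative to the range of the set. Chance flags about 1 in 20 such groups, or 7.2 here. Of the 10, 7 were library 59 of shAHCY_2, whose gene levels fell with GC content (Spearman correlation -0.56 across genes). There DNAJB9 was at 169 CPM (GC content 40.4%), SEC61G at 414 CPM (36.1%) and SSR3 at 1117 CPM (40%), above the other libraries of the group. In the same library P4HB was at 576 CPM (58.4%), PDIA4 at 292 CPM (53%), CRELD2 at 60.4 CPM (54.5%) and ATF6 at 72.7 CPM (41.3%), below the others. The part of GC content in these values was not tested.

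The other 3 were PDIA4 at 331 CPM in library 61 of shAHCY_4, PDIA4 at 255 CPM in library 54 of EV_4OHT and HERPUD1 at 143 CPM in library 51 of EV. The hairpins differed from each other in HSPA5, with a log2 fold change of -0.26 in shAHCY_2 minus shAHCY_4 (edgeR adjusted p = 0.049).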

How the results depend on the processing

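Across the 17 alternatives of each comparison, no call of the 36 genes changed direction. Of the called genes, 13 of 16 in EV_4OHT against EV, 3 of 4 with shAHCY_2 (HSP90B1, PDIA3 and PDIA4), 6 of 11 with shAHCY_4 (HSPA5, HSP90B1, SDF2L1, PDIA3, PDIA4 and PDIA6) and 0 of 1 between the hairpins kept their call in all 17. Against EV, 12 of 20 did with shAHCY_2 and 18 of 22 with shAHCY_4.

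Genes lower between the hairpins, 1 in the fit reported, were 0 with RLE or upper-quartile scaling, with 10 counts in 8 libraries and with only the groups compared, 3 with DESeq2 and 4 with the GC trend removed; 2 were higher with no filter. With shAHCY_2, 7 were higher with library totals and 1 lower with DESeq2 or the GC trend removed. With shAHCY_4, 0 were lower with library totals, 6 with only the groups compared and 5 with the GC trend removed. Against EV, genes lower with shAHCY_4 were 6 with library totals and 5 with upper-quartile scaling, and genes lower with shAHCY_2 were 2 with no filter or only the groups compared. In EV_4OHT against EV, 17 were higher with the GC trend removed. The causes were not tested.

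Leaving out each library gave 10 to 11 higher and 6 to 7 lower in EV_4OHT against EV, 3 to 5 and 0 with shAHCY_2, 6 to 9 and 0 to 2 with shAHCY_4, and 0 and 0 to 1 between the hairpins. Against EV the ranges were 10 to 17 and 3 to 5 with shAHCY_2, and 17 to 19 and 2 to 5 with shAHCY_4. No paired analysis was possible because the groups share no replicate numbers. Depth limits ERN1, EIF2AK3 and DERL3, at 9 to 51, 28 to 134 and 0 to 17 counts a library.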
